A study of Arabidopsis thaliana with 4 samples.

Results

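The 24 Arabidopsis thaliana genes described here gave some of the strongest and steadiest signals in whole 2-week-old seedlings of 4 genotypes. They were chosen by their measured values. Each is a nuclear gene whose symbol in the annotation is only its AT locus code, with a probe set of its own. Each had a deposited signal of at least 8000 on all 4 arrays, and a highest signal under 2 times the lowest. They are 24 of 11798 locus-coded genes, and of 13264 nuclear genes in all that have a probe set annotated to them alone. Level and steadiness are therefore not findings, and no test was made on them.

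Seedlings were profiled on Affymetrix ATH1 arrays, where a transcript is read by a group of short probes called a probe set. The genotypes were duf761-1, a mutant in the Nössen background, its wild type NO (Nössen), OE6, a transgenic line overexpressing DUF761-1 in Columbia-0, and its wild type Col-0. All plants shared the same medium (MS-based, 2% sucrose), temperature (22 °C), day length (16 h) and light level (100 µmol per m2 per s). With 1 array for each genotype no value has an error, and a difference cannot be assigned to the genotype rather than to the single array or RNA sample. OE6 is 1 line, the labels name no promoter for its transgene, and they give no locus for DUF761-1, so its own level was not checked here.

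A growing seedling spends much of its messenger RNA on a small set of housekeeping and photosynthetic proteins. Cytosolic ribosomal proteins are the protein subunits of the ribosomes that translate nuclear messages, and in plants each is encoded by a small family of near-identical genes. Translation factors bring the charged transfer RNAs to that ribosome and move it along. In green cells the proteins of the light reactions of the thylakoid are made from a mix of nuclear and plastid messages. Green cells also run the Calvin cycle and photorespiration, which recycles the by-product of Rubisco's reaction with oxygen.

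By function, the largest group was the cytosolic ribosomal proteins, with 10 of the 24 genes. A translation factor, a subunit of photosynthetic electron transport and an enzyme of photorespiration came from 1 gene each. These 13 were placed by lists of locus codes written from general knowledge, 19 lists with 441 loci. The ribosomal list is by far the longest, with 204 of the loci and 114 single-gene probe sets. The next, histones, has 10 such probe sets, so which class is largest depends in part on the lists' lengths. Of the 114 ribosomal probe sets 8.77% are among the 24 genes, against 0.201% of all locus-coded probe sets. The annotation tables used here state no function for the 13. They name AT4G01150, in no list, as CURT1A (CURVATURE THYLAKOID 1A), a protein that bends thylakoid membranes. The other 10 genes carry no function in the lists or tables and are given by locus code alone. They may include further ribosomal genes, so the ribosomal count of 10 holds for the lists as written and is a lower bound.

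The label of these genes as the most abundant transcripts needs a limit. In all, 203 of 22746 non-control probe sets reached 8000 on all 4 arrays, and the 24 genes are 11.8% of them. Of the rest, 22 were annotated to 1 nuclear gene with a symbol, 15 to 1 organelle gene, 10 to several genes, and 131 carried no gene name here. Steadiness was also common at this level: 198 of the 203 stayed under 2 times, as did 24 of the 25 with a locus code. The share under 2 times was 74.7% for probe sets with a lowest signal between 102 and 500, and 97.5% from 8000 up. Probe sets differ in how strongly they bind, so a signal does not rank one gene's transcript above another's.

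**Figure D1:**
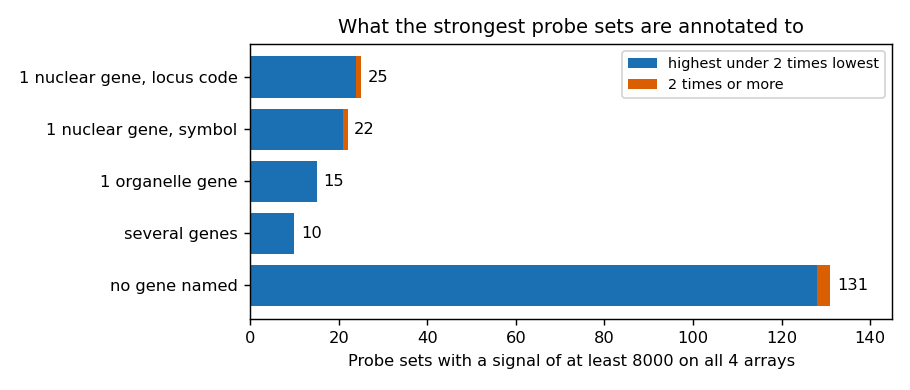
Number of probe sets with a signal of at least 8000 on all 4 arrays, by what they are annotated to; colours split them by whether the highest signal was under 2 times the lowest. The 25 probe sets of locus-coded nuclear genes are a small part beside the 131 with no gene name here.

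Choosing genes by locus code also sets which functions can appear. All 104 genes of the ribosomal list with a signal above the floor of 102 carry only a locus code as symbol. None could thus be among the 21 nuclear genes with a symbol of another kind that met the same 2 thresholds. Of those 21, 10 were in the photosynthesis and photorespiration lists. They included RCA, the activase of Rubisco, the Calvin cycle enzymes PRK and SBPASE, the photosystem I subunits PSAE-1 and PSAN, and the light-harvesting protein gene LHCB4.1. RCA, for example, had signals of 24530 on duf761-1, 25285 on NO, 18082 on OE6 and 17660 on Col-0. A further 8 high probe sets matched several nuclear genes each. In 4 of these every gene was in the ribosomal list, in 2 every gene was in the translation factor list and in 2 every gene was in the histone list. The share of each function among all strong transcripts cannot be read from the 24 genes alone, since they were chosen by kind of name and 131 strong probe sets are unnamed here.

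The tissue labels were checked on marker genes. The root gene PYK10, a beta-glucosidase, had 15882 on duf761-1, 16371 on NO, 16513 on OE6 and 15970 on Col-0. The root hair expansin genes were low, with EXPA7 between 79.1 and 196 and EXPA18 between 188 and 426, and COBL9 had no probe set named here. Among photosynthesis genes, LHCB4.1 was strong on all arrays, at 17984 to 20409. Of the 3 light-harvesting probe sets it was the 1 that reached 8000 on all arrays, and 2 of the 3 reached 1000. The 2 photosystem I and 2 photosystem II probe sets all reached 8000, as did 3 of the 4 of the Calvin cycle. Strong signals of green tissue and of PYK10 were thus present on every array. A whole-seedling signal cannot tell fewer cells of a type from less RNA per cell.

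Of the 10 ribosomal genes, 6 had their highest signal on NO and their lowest on Col-0. AT5G20290 had signals of 17903 on duf761-1 against 20414 on NO, and 18868 on OE6 against 16949 on Col-0. AT5G15200 had 12745 on duf761-1 against 14611 on NO, and 14207 on OE6 against 12255 on Col-0. Grouping genes by NO as highest and Col-0 as lowest fixes duf761-1 below NO and OE6 above Col-0. That order within the 6 is therefore not a finding. The share of all probe sets with NO highest and Col-0 lowest is not given here.

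AT3G09200 and AT3G60245 showed the same order with a wider gap in the Columbia pair. AT3G09200 had 14204 on duf761-1 and 14873 on NO, and 13017 on OE6 and 10336 on Col-0. AT3G60245 had 12079 on duf761-1 and 13156 on NO, and 12139 on OE6 and 9711 on Col-0. The Col-0 value was the lowest of the 4 for both genes. Its signal was 0.695 times that of NO for AT3G09200 and 0.738 times for AT3G60245.

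AT2G41840 and AT1G67430 also followed this order at lower signals. AT2G41840 had 10613 on duf761-1, 11593 on NO, 10220 on OE6 and 8992 on Col-0. AT1G67430 had 9891 on duf761-1, 10794 on NO, 9465 on OE6 and 8084 on Col-0. AT1G67430 was the gene nearest to the threshold of 8000, through its Col-0 value.

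The other 4 ribosomal genes departed from the pattern in 1 place or more. AT1G15930 was slightly higher on duf761-1 (11639) than on NO (11099), with 10362 on OE6 and 9053 on Col-0. AT1G52300 was highest on OE6, with 13350 against 10207 on Col-0, and had 11293 on duf761-1 and 10483 on NO. Its 1.31-fold difference between OE6 and Col-0 was the largest of the 24 genes in that comparison.

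AT1G01100 stood out by the NO array, at 13717, while the other 3 arrays lay between 10960 and 11129. AT2G37190 was the 1 ribosomal gene of the 10 that was lower on OE6 (9419) than on Col-0 (9758). It had 8807 on duf761-1 and 10534 on NO. All 10 ribosomal genes were lower on Col-0 than on NO on the deposited scale, where 51.25% of all probe sets above the floor were higher. When the arrays were scaled on their spike-in controls, 7 of the 10 were higher on Col-0, as were 74.9% of all probe sets above the floor.

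Of the remaining genes with a listed function, the translation factor AT5G19510 had the largest difference between mutant and wild type. Its signal was 9576 on duf761-1 against 13619 on NO, and 10316 on OE6 against 10328 on Col-0. The NO array alone was high. The log2 ratio of duf761-1 over NO was -0.51 (0.703-fold), the lowest of the 24 genes.

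AT2G26500 and AT1G11860 had the narrowest ranges of the selected genes, a set chosen partly for steadiness. Their steadiness did not extend to photosynthetic genes as a class. Among the strong photosynthesis and photorespiration genes with a symbol, the highest signal was from 1.12 times the lowest (PSAE-1) to 1.57 times (SBPASE). AT2G26500, of the electron transport list, had 18313 on duf761-1, 19995 on NO, 19982 on OE6 and 18709 on Col-0, a highest of 1.09 times the lowest. AT1G11860, of the photorespiration list, had 10368 on duf761-1, 10129 on NO, 10754 on OE6 and 10001 on Col-0, a highest of 1.07 times the lowest. CURT1A (AT4G01150) behaved otherwise: it had 12112 on duf761-1 and 10997 on NO, and 14354 on OE6 and 13535 on Col-0, so both Columbia arrays lay above both Nössen arrays.

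Of the 10 genes with no function stated here, 8 had both Columbia arrays below both Nössen arrays on the deposited scale, and the exceptions were AT2G25510 and AT3G15450. The same order held for 33.2% of all probe sets above the floor and for 54.2% of the 203 strong ones. Under spike-in scaling it held for 1 of the 10 genes and for 15.6% of all probe sets above the floor. AT2G45180 had 17059 on OE6 and 15570 on Col-0, against 20755 on duf761-1 and 19978 on NO. AT1G78040 had 14627 on OE6 and 14001 on Col-0, against 17817 on duf761-1 and 17332 on NO. These 2 genes had a clear gap between the backgrounds and little difference within either.

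AT3G58610 had the widest range of the 24, a highest of 1.53 times the lowest. It had 9084 on OE6 and 8602 on Col-0, against 11372 on duf761-1 and 13162 on NO. Its ratio of Col-0 over NO was 0.653-fold, the lowest of the 24 genes. AT2G34480 was close behind at 0.677-fold, with 10354 on OE6 and 8749 on Col-0, against 11792 on duf761-1 and 12913 on NO. AT3G48140 followed at 0.685-fold, with 9914 on OE6 and 8319 on Col-0, against 12148 on duf761-1 and 12152 on NO.

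AT3G11630 had 12303 on OE6 and 11669 on Col-0, against 13822 on duf761-1 and 14024 on NO. AT2G43030 had 11424 on OE6 and 10551 on Col-0, against 13333 on duf761-1 and 12817 on NO. AT2G37220 was nearly level, with 9252 on OE6 and 9046 on Col-0, against 9606 on duf761-1 and 9977 on NO. All 3 still had both Columbia arrays below both Nössen arrays.

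AT2G25510 went the opposite way and was the gene furthest above NO on Col-0. It had 23204 on OE6 and 24177 on Col-0, against 17227 on duf761-1 and 17160 on NO, which is 1.41-fold for Col-0 over NO. AT3G15450 was the gene furthest above NO on duf761-1, with 11358 on duf761-1 against 9287 on NO, or 1.22-fold. Its OE6 and Col-0 values, 9891 and 9904, were level.

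**Figure D2:**
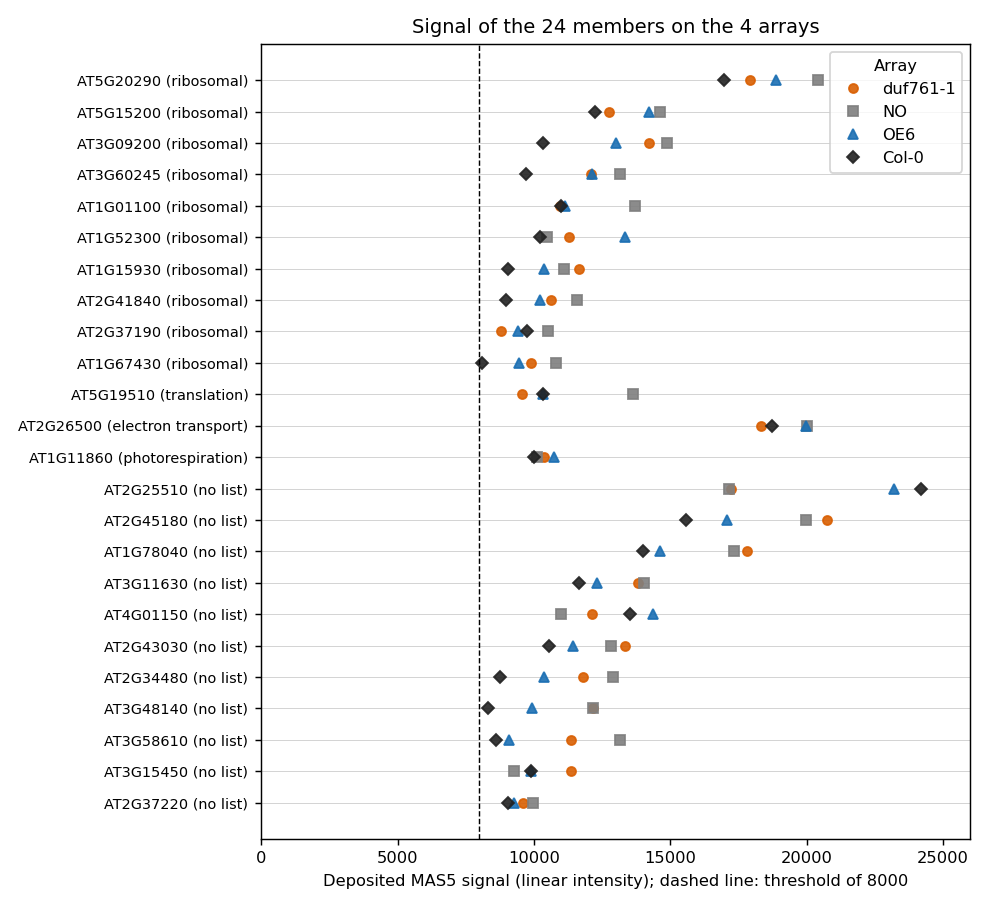
Deposited linear signal of each of the 24 genes on the duf761-1, NO, OE6 and Col-0 arrays, with the list that holds the gene in brackets; the dashed line is the threshold of 8000. Most rows have Col-0 (diamonds) at the left, and AT2G25510 and AT4G01150 have both Columbia arrays at the right.

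At the edges of the rule, the 3 lowest values inside the signal threshold were 8084 for AT1G67430, 8319 for AT3G48140 and 8602 for AT3G58610. Just outside were AT4G27090 (7996), AT3G24830 (7940) and AT5G02870 (7785). AT4G27090 and AT5G02870 are in the ribosomal list. AT3G24830 is in no list, which leaves its function unstated here and does not make it other than ribosomal. The ranges nearest to 2 times from inside were 1.53 for AT3G58610, 1.48 for AT2G34480 and 1.46 for AT3G48140. The 1 gene past it was AT1G74470, named geranylgeranyl reductase in the reference table, an enzyme that supplies the side chain of chlorophyll. It had 8152 on OE6 and 8275 on Col-0, against 18129 on duf761-1 and 18839 on NO, a range of 2.31 times.

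In the comparison of duf761-1 with NO, which asks what differs in the mutant, the 24 genes were close to level. Their median log2 ratio was -0.06, with 9 higher and 15 lower on duf761-1. The median of all 203 probe sets at 8000 or more was also -0.06, and that of the 14992 probe sets above a floor of 102 on some array was 0.00. Higher on duf761-1 were 31.0% of the 203 and 45.2% of the 14992. No gene was at least 1.25-fold higher and 2 were at least 1.25-fold lower, AT5G19510 and the ribosomal gene AT1G01100, where the background was 11.9% higher and 10.4% lower. The rule used this contrast, so nothing is read from these counts, and 0 genes could reach 2-fold, where the background was 0.52% higher and 0.22% lower.

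In the comparison of OE6 with Col-0, which asks what differs when DUF761-1 is overexpressed, 20 of the 24 genes were higher on OE6 on the deposited scale. The number was 16 under quantile normalization (median log2 ratio 0.06) and 14 under spike-in scaling (median 0.02). Of all probe sets above the floor, 44.7% were higher on the deposited scale, 45.9% under quantile normalization and 33.3% under spike-in scaling. Of the 203 strong probe sets, 66.0% were higher on the deposited scale. On the deposited scale the median log2 ratio was 0.11, against 0.05 for the 203 probe sets and -0.01 for those above the floor. Those at least 1.25-fold higher were the ribosomal genes AT1G52300, AT3G09200 and AT3G60245, 3 genes in all, where the background was 10.9%. None of the 24 was 1.25-fold lower, where the background was 12.6%. By that factor, 9 of the 203 strong probe sets were above Col-0 on OE6 and 2 were below it. The rule used the OE6 and Col-0 arrays as well, so nothing is read from these 1.25-fold counts. The 10 genes of the ribosomal list had a median of 0.20 (9 of 10 higher) and the 14 genes outside it one of 0.08 (11 of 14 higher). The 14 may hold further ribosomal genes, since most of them carry no function here.

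Between the wild types, 21 of the 24 genes were lower on Col-0 than on NO on the deposited scale (6 of 24 under spike-in scaling), with a median log2 ratio of -0.29 and a range of -0.61 to 0.49. The 203 probe sets had a median of -0.21 and those above the floor one of 0.02. Higher on Col-0 were 21.2% of the 203 and 51.25% of those above the floor, and 74.9% of the latter under spike-in scaling. Of the 24 genes, 1 was at least 1.25-fold higher (background 31.0%) and 9 at least 1.25-fold lower (background 26.3%). By that factor, 15 of the 203 strong probe sets were above NO on Col-0 and 65 were below it. The rule used the NO and Col-0 arrays too, so nothing is read from these 1.25-fold counts. The comparison of the wild types shares the NO array with the mutant comparison and the Col-0 array with the overexpressor comparison, so the 3 are not independent.

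**Figure D3:**
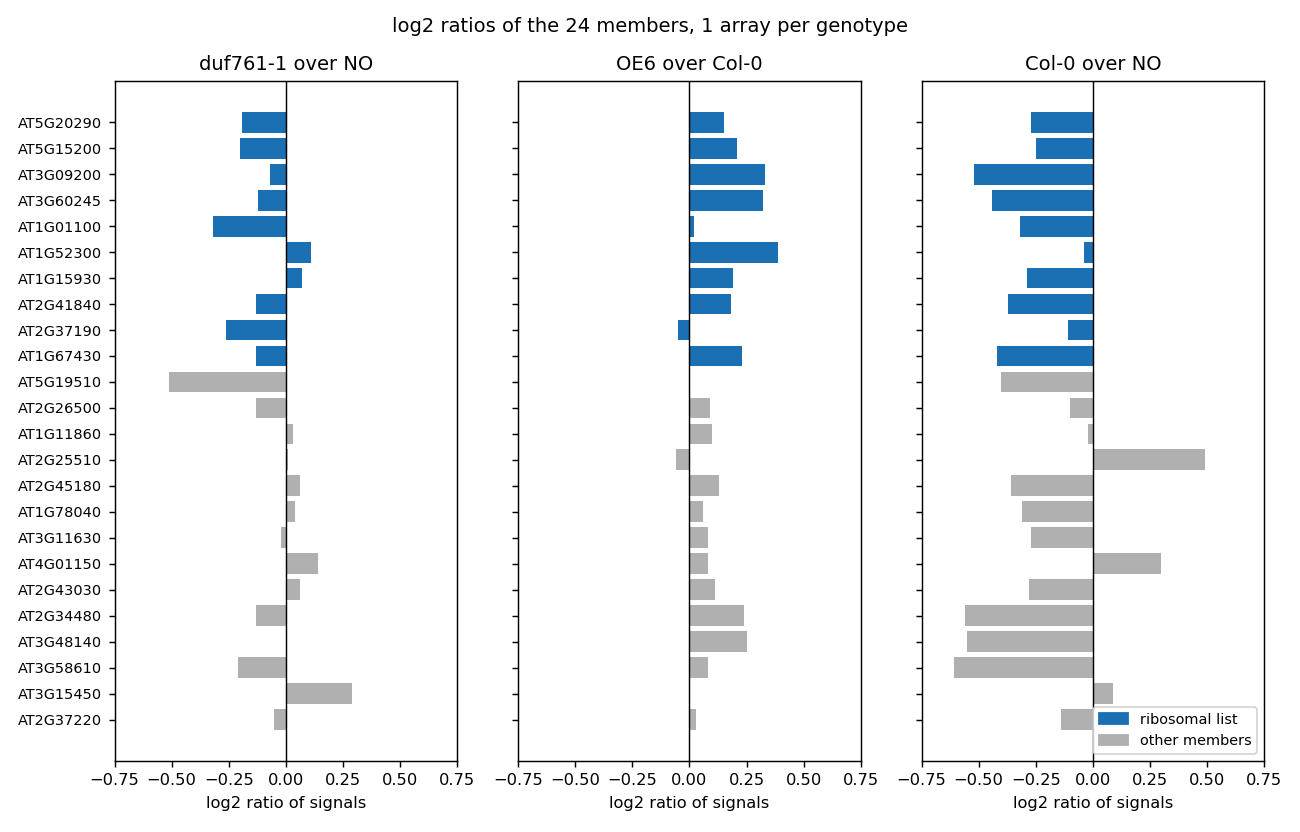
log2 ratio of signals of each of the 24 genes in the 3 comparisons, as bars from 0, with the 10 genes of the ribosomal list coloured. Ratios of OE6 over Col-0 are mostly above 0 and those of Col-0 over NO mostly below 0 on the deposited scale. Spike-in scaling turns the latter to a median of 0.12, and that of all probe sets above the floor to 0.40.

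On the deposited scale, both Columbia arrays lay below both Nössen arrays in 12 of the 24 genes, where the share over all probe sets above the floor was 33.2%, and above them in 2, where it was 38.0%. Among all 203 strong probe sets the numbers were 110 (54.2%) and 34 (16.7%), so the split was also present in the strong probe sets at large. Under spike-in scaling both Columbia arrays were below both Nössen arrays in 1 of the 24 genes, where the share over all probe sets above the floor was 15.6%. Under that scaling Col-0 was lowest in 3 genes (12.5%), where that share was 9.97%. The shares that follow are on the deposited scale. Col-0 was the lowest of the 4 arrays for 17 of the 24 genes (70.8%), for 105 of the 203 (51.7%) and for 23.8% of the probe sets above the floor.

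This direction depended on signal strength across the whole array. The median log2 ratio of Col-0 over NO was 0.07 for probe sets with a lowest signal between 102 and 500, -0.08 between 1000 and 2000, -0.19 between 4000 and 8000, and -0.21 from 8000 up. The 99th percentile of signal was 9766 on duf761-1 and 10112 on NO, against 9555 on OE6 and 8964 on Col-0. With quantile normalization, which gives all arrays the same distribution, the 24 genes' median was -0.11 and that of the 203 was -0.02. Scaled on the spike-in controls, Col-0 was higher than NO: the 24 genes had a median of 0.12, with 18 higher. The median of the probe sets above the floor moved to 0.40, with 74.9% of them higher. The direction between the wild types is thus relative to the scaling chosen.

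Control probe sets that read both ends of a transcript, used as a check of RNA quality, also differed between the backgrounds, most for actin. The array has a pair of such control sets for each of 3 transcripts. For actin, the 3′ end signal divided by the 5′ end signal was 2.06 on OE6 and 1.61 on Col-0, against 0.267 on duf761-1 and 0.279 on NO. In the other actin set it was 9.84 on OE6 and 7.52 on Col-0, against 1.49 on duf761-1 and 1.66 on NO. Both Columbia arrays were thus above both Nössen arrays in both actin sets. In the first set the 3′ signal was 1143 on duf761-1, 1462 on NO, 10189 on OE6 and 9643 on Col-0. Its 5′ signal was 4278 on duf761-1, 5232 on NO, 4954 on OE6 and 5978 on Col-0. The other set had 3′ signals of 677, 886, 5390 and 5258 in that order, with 5′ signals between 453 and 700. The actin difference thus lay mainly in the 3′ signal. For ubiquitin they were above by less, with 1.27 on OE6 and 1.16 on Col-0, against 1.1 on duf761-1 and 1.08 on NO, and in the other set with 2.72 on OE6 and 2.62 on Col-0, against 2.58 on duf761-1 and 2.60 on NO. For GAPDH they were above in 1 set only, with 1.38 on OE6 and 1.29 on Col-0, against 1.19 on duf761-1 and 1.14 on NO, while the other set lay between 0.754 and 0.887. Whether these control differences, lying for actin mainly in the 3′ signal, reflect RNA quality was not tested. The part of RNA quality in the differences between the backgrounds, or between OE6 and Col-0, was not tested either.

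**Figure D4:**
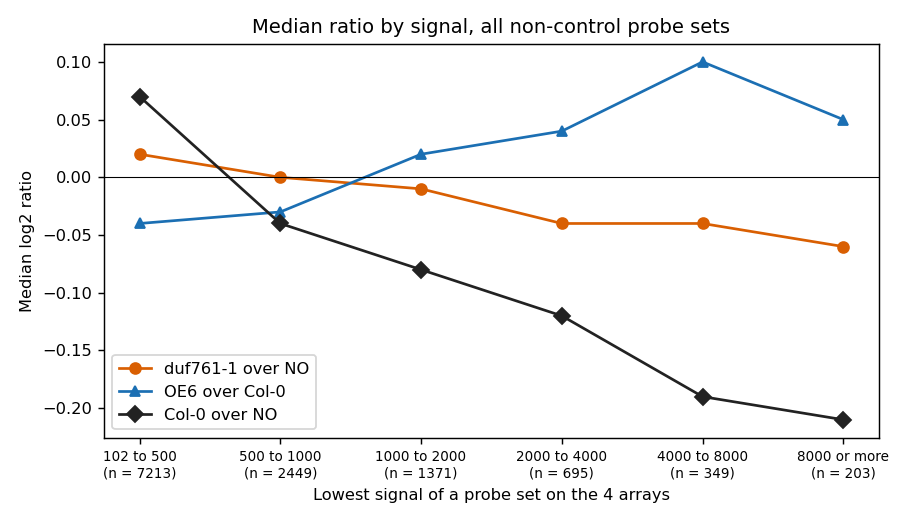
Median log2 ratio in the 3 comparisons for the 12280 non-control probe sets with a lowest signal on the 4 arrays of at least 102, by that lowest signal, with the number in each bin. The line for Col-0 over NO falls with signal to -0.21 in the highest bin.

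The ribosomal list allowed a look past the rule, since most of its genes did not pass the thresholds. Of its 204 loci, 114 had a probe set of their own, 104 of these exceeded the floor on some array, and 10 are among the 24 genes. Of the 104 probe sets of the list outside the 24 genes, 75 (72.1%) reached 1000 on all arrays and 40 (38.5%) reached 4000, while 10 were not above the floor on any array. Of all locus-coded probe sets outside the 24 genes, 7.18% reached 1000 and 0.848% reached 4000. Some of the list was weak, such as AT5G59240, at 106 on duf761-1, 82 on NO, 63 on OE6 and 45 on Col-0. Members of a ribosomal family have near-identical copies whose probes may share signal, so single genes are uncertain as separate measurements.

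The 94 ribosomal probe sets above the floor and outside the 24 genes were higher on OE6 than on Col-0 almost throughout. Of these, 91 were higher, 2 were lower and 1 was at the floor on both arrays, with a median log2 ratio of 0.33 (1.25-fold). In comparison, 44.7% of all probe sets above the floor and 66.0% of the 203 strong ones were higher on OE6. Over all probe sets this median also varied with signal. It was -0.04 for a lowest signal between 102 and 500, 0.10 between 4000 and 8000, and 0.05 from 8000 up. At least 1.25-fold higher were 48 of the 94, where the background was 10.9% (9 of the 203 strong probe sets), and 0 were 1.25-fold lower. None reached 2-fold in either direction, where the background was 0.514% higher and 0.494% lower. The shift was small per gene and wide across the list.

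The furthest genes were chosen after their values were seen. AT1G23410 had the largest ratio at a weak signal, with 350 on OE6 against 204 on Col-0, and 176 on duf761-1 and 146 on NO. AT2G20450 had 1517 on OE6 against 913 on Col-0, with 1198 on duf761-1 and 1200 on NO. AT3G53890 had 5134 on OE6 against 3204 on Col-0, with 6131 on duf761-1 and 6390 on NO. The Col-0 value was the lowest of the 4 arrays in AT2G20450 and AT3G53890, but not in AT1G23410. AT5G47930 had 6962 on OE6 against 4379 on Col-0, with 6251 on duf761-1 and 4604 on NO. The 2 genes lower on OE6 were AT3G13580 (2487 on OE6 against 2549 on Col-0) and AT5G39850 (541 on OE6 against 553 on Col-0), both nearly level.

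Col-0 was the array where the list lay lowest against all probe sets, on the deposited scale and under spike-in scaling. On the deposited scale, for the 94 probe sets the median log2 distance of an array from the 4-array mean was 0.06 on duf761-1 and 0.09 on NO, and 0.07 on OE6 and -0.26 on Col-0. For all probe sets above the floor these medians lay between -0.02 and 0.01. Col-0 was the lowest array for 74 of the 94 (78.7%) on this scale, against 23.8% of all probe sets above the floor. Under spike-in scaling the distances were -0.08 on duf761-1 and -0.09 on NO, and 0.20 on OE6 and -0.05 on Col-0. Those of all probe sets above the floor were then -0.13 on duf761-1, -0.18 on NO, 0.11 on OE6 and 0.21 on Col-0. Col-0 was lowest for 34 of the 94 (36.2%), against 9.97% of all probe sets above the floor. With 1 array each, a low Col-0 array and a raised OE6 line cannot be told apart. The direction of OE6 over Col-0 held when the arrays were scaled otherwise, with 91 higher under median scaling, 89 under quantile normalization and 86 under spike-in scaling, and medians of 0.33, 0.28 and 0.24.

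In the mutant comparison the same 94 probe sets had a median of -0.04, with 34 higher and 59 lower on duf761-1, and 0 were 2-fold apart. Of all probe sets above the floor, 45.2% were higher. The direction was not stable: under spike-in scaling 49 of the 94 were higher and the median was 0.01, where 52.65% of all probe sets were higher. Between the wild types the median was -0.39 (13 higher and 80 lower on Col-0), where 51.25% of all probe sets above the floor were higher. There, AT3G10610 (1148 on Col-0 against 2744 on NO) and AT2G44120 (4122 on Col-0 against 8427 on NO) were the 2 at least 2-fold lower, where the background was 6.01%. AT3G28500, at least 1.33 higher on the log2 scale on Col-0, was the 1 at least 2-fold higher, where the background was 9.02%. It was weak, at 258 on Col-0 and below the floor on NO. Under spike-in scaling the list's median between the wild types was 0.02, with 51 of 94 higher, while all probe sets stood at 0.40, so the list lay 0.38 below them. On the deposited scale it lay 0.40 below.

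**Figure D5:**
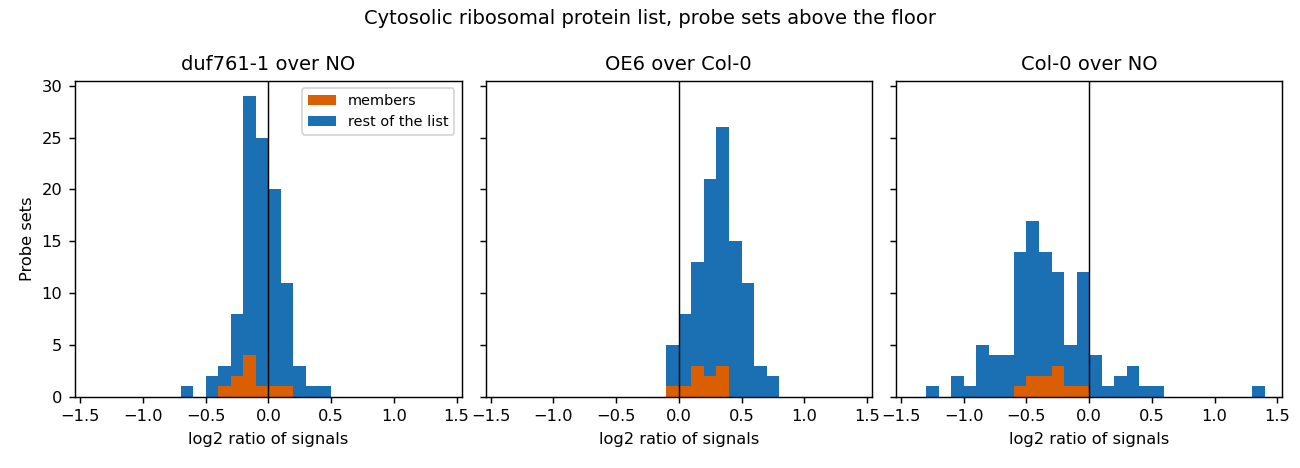
Number of probe sets of the cytosolic ribosomal protein list (104 above the floor) by log2 ratio of signals in the 3 comparisons, with the 10 selected genes and the other 94 stacked. In OE6 over Col-0 nearly the whole list is right of 0, and in Col-0 over NO most of it is left of 0 on the deposited scale. There, spike-in scaling gives a median of 0.02 for the 94 and 0.40 for all probe sets above the floor.

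The other lists were mostly too thinly measured to set beside it. The photosystem I, photosystem II and electron transport lists had 2 probe sets each, light-harvesting 3, and the Calvin cycle and photorespiration 4 each. Outside the 24 genes, the 4 of the Calvin cycle had a median of -0.05 on duf761-1 against NO. Their medians were 0.04 on OE6 against Col-0, and -0.46 on Col-0 against NO. The 6 other translation factor probe sets had a median of -0.19 for OE6 over Col-0 and 2 of 6 higher. Cytoskeleton genes (8 probe sets) had a median of 0.21 with 7 of 8 higher, and histones (8) one of 0.19 with 5 of 8 higher. Histones had a median of 0.40 for Col-0 over NO, and cyclophilins and chaperones (3) one of 0.84. The carbonic anhydrase, ubiquitin, aquaporin, lipid transfer protein, glycine-rich RNA-binding and methionine lists had no probe set named to 1 gene here.

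In share of signal, the 24 genes held 1.93% of the summed signal of all non-control probe sets on duf761-1 and 2.01% on NO, and 1.93% on OE6 and 1.79% on Col-0. On chromosomes, as read from the locus codes, 6 lay on chromosome 1, 8 on chromosome 2, 6 on chromosome 3, 1 on chromosome 4 and 3 on chromosome 5. None of the 24 probe sets carries a suffix that marks possible cross-hybridisation.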

How the data were processed

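The authors deposited linear signal intensities per probe set, and the submitters' processing notes name MAS5 (its version is not given in the sources used here). All 4 arrays share a trimmed mean intensity of 500 (2% cut at each end), as computed from the deposited values. Biotin-labelled target came from 6 µg of total RNA, per the labels' protocols. Probe sets were named through the platform annotation and a reference gene table (TAIR10.1, 13436 of 13513 single-gene probe sets matched there), used for names only. For ratios, values below the 40th percentile of non-control probe sets (102) were set to it before taking log2. No test or error is possible with single arrays, and the number of arrays limits precision. Counts used 2-fold and 1.25-fold. Alternatives were other thresholds (6000, 10000, 1.5 and 3 times), median, quantile and spike-in scaling (18 probe sets), a pseudocount of 100, and leaving out arrays or probe sets. The rule for named genes took the ends of each class, of each ratio and of each threshold, and the rest of the 24 are given for completeness. The members and lists were chosen with earlier results of these data known. Selection and ratios were tested on simulated data. Python 3.11.15 with pandas 2.3.3 was used.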

Additional observations from a re-analysis of the deposited data

How the results depend on the processing

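The number of selected genes was 24 and stayed within 1.5 times of that under the other settings run, except with thresholds of 6000 (57 genes, 27 of them ribosomal) and 10000 (13 genes, 5 ribosomal). Under spike-in scaling it was 33, of which 16 were ribosomal. Leaving out 1 array from the rule in turn, chosen after seeing the data, gave 25 to 35 genes, the highest number without Col-0. Leaving out an array only relaxes the rule, so the 24 had to be kept. The share of summed signal was 4.84% on duf761-1, 5.02% on NO, 4.65% on OE6 and 4.30% on Col-0 when the total held only probe sets of 1 nuclear gene. Spike-in scaling, chosen after seeing the data, turned the median of the 24 genes for Col-0 over NO to 0.12 and those of the other 94 ribosomal probe sets to 0.0113 for duf761-1 over NO and 0.0155 for Col-0 over NO, where 51 were higher. Spike-in scaling put the median of all probe sets above the floor at 0.40 for Col-0 over NO. Median scaling left 8 of those 94 higher for Col-0 over NO, where 40.8% of all probe sets above the floor were higher. The cause was not tested. For OE6 over Col-0, the medians of the 24 genes and of the 94 ribosomal probe sets kept their direction under all settings run. Across the 4 scalings 14 to 22 of the 24 genes were higher, against 33.3% to 45.9% of all probe sets above the floor. The median of the 24 genes was down to 0.02 under spike-in scaling. No paired analysis was possible because each genotype has 1 array. Promoter motifs and protein features, planned as sequence features, were not analysed here. Signals near the top of the scanner's range may compress ratios, which was not tested.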
